A study of Mus musculus with 6 samples.

Results

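DNA repair and damage signalling genes were examined in RNA from the cortex of mouse embryos of the C57BL/6 strain, taken at embryonic day 12.5. The 49 genes were listed by name over 7 repair pathways, and the rule that picks them uses no measured value, though the list was drawn up with earlier results of these data known. The deposited table holds 12041 gene symbols, and 41 of the 49 genes have a row in it. Of these 41, 27 reached 1 FPKM (a read count scaled by transcript length and by a size factor of the library) in at least 3 of the 6 libraries and were tested. The other 14 were too low to test. Brca2, Rad51c, Fanca, Atm, Atrip, Chek2, Ercc3 and Xpa have no row and are not analysed here.

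The compared groups were 3 libraries labelled Hdac1&2 cKO, with columns named HM-5, HM-13 and HM-16, and 3 libraries labelled WT, with columns named HC-1, HC-8 and HC-10. The cKO label denotes a conditional knockout of both Hdac1 and Hdac2, the histone deacetylases that act in the Sin3, NuRD and CoREST corepressor complexes. Which recombinase made the deletion, its promoter and the exons removed are details not given in the sources used here. Nothing in the labels ties each library to an embryo of its own, and p-values therefore measure the spread between libraries, which may be technical. Hdac1 had 45.5 to 61.0 FPKM in the cKO libraries, 25.6% of its WT mean, against 193 to 212 FPKM in the WT libraries. Hdac2 had 37.6 to 61.7 FPKM in the cKO libraries, 23.6% of its WT mean, against 134 to 272 FPKM in the WT libraries. Recovered reads ran between 9712556 and 11922665 per library, and the ribosomal RNA row Rn45s took 29.7% of the reads in HM-13 against 0.506% to 2.48% in the other 5. The reads of the repair genes summed to between 30357 in HM-13 and 49893 in HC-8. In whole cortex, fewer cells of a type and less RNA per cell cannot be told apart.

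Cells repair DNA by separate routes. Breaks through both strands are either religated by end joining or copied from an intact sister chromatid by homologous recombination, crosslinked strands are unhooked by the Fanconi anaemia proteins, and damaged or mispaired bases are cut out by base excision, nucleotide excision or mismatch repair. The kinases ATM and ATR sense breaks and stalled replication forks and pass the signal to checkpoint proteins. The embryonic cortex divides fast and depends on these routes: in mice, loss of the ligase Lig4 or of its partner Xrcc4 causes newborn neurons to die.

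Xrcc5, Nbn, Apex1 and Ercc1 fell in the cKO libraries, to between 68.7% and 78.8% of their WT means, and none of the 27 tested genes rose. These 4 genes were listed under 4 different pathways, with each gene placed in 1 list only. The share of tested repair genes that changed, 14.8%, was below the 18.0% of all 9359 tested genes that changed. Split by direction, 14.8% of the repair genes fell, against 8.39% of all tested genes, and 0 rose, against 9.62%. At an unadjusted p under 0.05 there were 8 repair genes (29.6%), against 34.3% of all tested genes. With voom on recovered reads 2 repair genes rose. When HM-5, HM-16, HC-1 or HC-10 was left out, 2 genes (Xrcc5 and Nbn) fell in place of 4, and the share of all tested genes that changed was also lower, at 5.59%, 5.96%, 12.0% and 9.64% in that order. The test throughout was limma on log2(FPKM + 1), with p-values adjusted over all 9359 tested genes by the Benjamini-Hochberg method and a threshold of 0.05. Fold changes are cKO over WT on that scale, which understates the change of low genes.

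The bases before the annotated starts of Xrcc5 and Apex1, which fell, and of Mdc1, which did not pass the test, are given here to show sequence without and with an E2F spelling. They were chosen after the values were seen. Each run is the 250 bases before the RefSeq start (build GRCm38.p6), 5′ to 3′ on the strand of the gene. Capitals mark a CCAAT box (CCAAT, or ATTGG where it lies on the other strand) and, in Mdc1 alone, an E2F spelling (TTTCCCGC).
Xrcc5 at chr1:72307171-72307420 on the plus strand: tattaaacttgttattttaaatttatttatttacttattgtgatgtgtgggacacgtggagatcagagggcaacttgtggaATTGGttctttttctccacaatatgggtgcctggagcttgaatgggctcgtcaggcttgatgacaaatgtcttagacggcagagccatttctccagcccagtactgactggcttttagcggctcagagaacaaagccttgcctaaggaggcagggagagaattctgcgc
Apex1 at chr14:50924699-50924948 on the plus strand: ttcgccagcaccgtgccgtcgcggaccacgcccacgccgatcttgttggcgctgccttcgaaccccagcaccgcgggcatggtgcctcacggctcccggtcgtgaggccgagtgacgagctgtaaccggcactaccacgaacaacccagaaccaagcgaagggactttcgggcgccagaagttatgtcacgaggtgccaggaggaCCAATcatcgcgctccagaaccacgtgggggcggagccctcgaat
Mdc1 at chr17:35841248-35841497 on the plus strand: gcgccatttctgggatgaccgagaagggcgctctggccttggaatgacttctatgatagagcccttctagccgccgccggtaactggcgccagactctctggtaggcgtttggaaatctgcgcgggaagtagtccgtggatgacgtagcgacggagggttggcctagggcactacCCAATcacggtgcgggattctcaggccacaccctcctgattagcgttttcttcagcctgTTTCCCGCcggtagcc

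E2F factors drive many replication genes. The E2F spellings searched on both strands, TTTGGCGC, TTTCCCGC, TTTCGCGC and TTTGCCGC, occurred in 8 of the 44 windows found for the repair genes (18.2%, over 41 genes), against 1.86% of 32851 windows of all genes. The 8 windows belong to Bard1, Brca2, Chek2, Fancg, Mdc1, Msh3, Topbp1 and Xrcc6. Among the 3 fallen genes with a window (Xrcc5, Apex1 and Ercc1), none of these spellings occurred, but the Ercc1 window lies past the GENCODE start of the gene, and Nbn had no entry in the table. Of the 8 windows with an E2F spelling, those of Bard1 and Topbp1 also run in part past the GENCODE start. That of Mdc1 does not, and the others were not checked for this. The CCAAT box was in 22 of the 44 repair gene windows and 33.8% of all windows, and the NRF1 word GCATGCGC in 11.4% and 2.26%. The cell cycle word TTTGAA (CHR) was in 4.55% of repair gene windows and 16.0% of all windows. No word overlapped another of the words searched in the windows printed, and a match is a description of letters only.

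**Figure D1:**
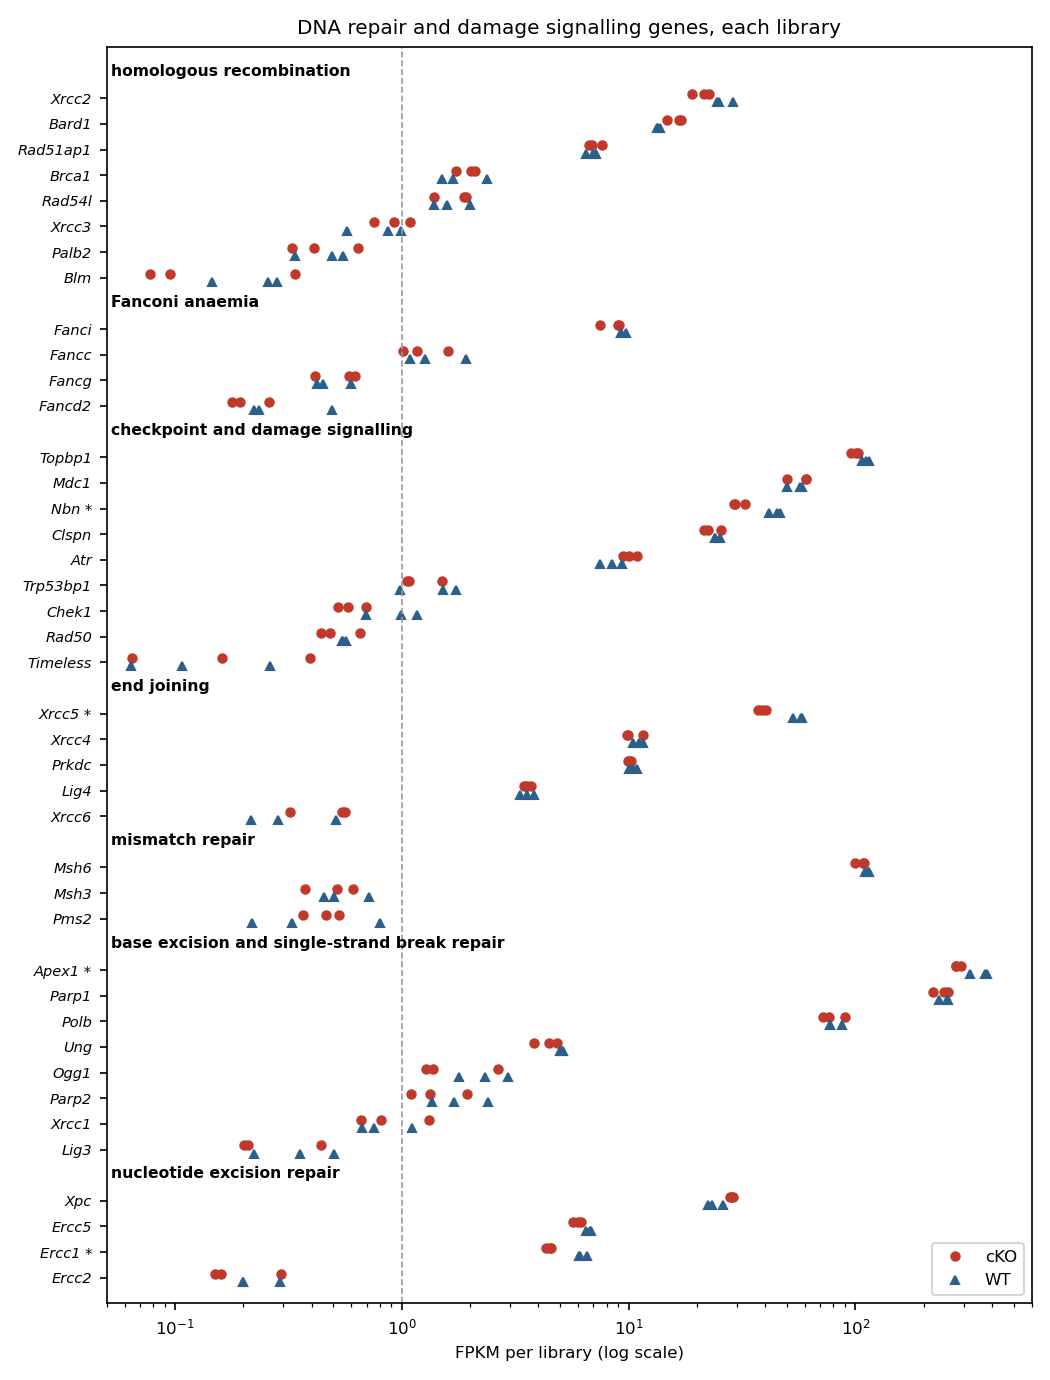
FPKM of the 41 repair genes with a row in each library on a log axis, grouped by pathway (circles, 3 cKO libraries, triangles, 3 WT libraries, asterisk, adjusted p under 0.05, dashed line, 1 FPKM). The 4 genes with an asterisk have all cKO libraries below all WT libraries, and 14 genes average under 1 FPKM.

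Levels spanned a wide range. Of the 41 genes, 14 had a mean under 1 FPKM over the 6 libraries, 13 lay from 1 to 10, 10 from 10 to 100 and 4 above 100. The 4 highest were Apex1, Parp1, Msh6 and Topbp1. Every tested gene reached 1 FPKM in at least 1 library of each group, so none passed the level filter through 1 group alone.

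Among damage sensors and checkpoint genes, Nbn fell, and the other 5 tested genes did not pass the test. Nbn encodes nibrin, which brings the Mre11 nuclease and Rad50 to broken ends and helps to activate the Atm kinase. Nbn (chromosome 4, 15957925 to 15992589, plus strand, GRCm38) had 29.3, 32.6 and 29.4 FPKM in the cKO libraries, against 45.1, 41.5 and 46.3 FPKM in the WT libraries. Every cKO library lay below every WT library. The mean was 30.4 ± 1.87 FPKM in cKO and 44.3 ± 2.54 FPKM in WT (SD, n = 3 each), a log2 fold change of -0.53 (SE 0.07, 95% interval -0.70 to -0.36, limma adjusted p = 0.00503). It rested on 699 to 1316 reads per library, and a processed pseudogene without a row, Gm11869, lies inside it over 357 bases of the other strand.

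Topbp1, the scaffold that switches on Atr at stalled forks, had 100.2, 95.3 and 102.7 FPKM in the cKO libraries, against 111.6, 107.2 and 114.2 FPKM in the WT libraries. The groups did not overlap, but the difference of -0.16 on the log2 scale missed the threshold (95% interval -0.29 to -0.02, limma adjusted p = 0.0979). In a second row of Topbp1 (2.37 ± 0.237 FPKM in cKO, 2.83 ± 0.577 FPKM in WT) the groups overlapped. Atr itself, the kinase of stalled forks, had 10.8, 9.42 and 10.05 FPKM in cKO and 7.47, 9.37 and 8.42 FPKM in WT. The groups of Atr did not overlap, though the nearest libraries were almost level, with cKO above WT (log2 fold change 0.24, 95% interval -0.01 to 0.49, limma adjusted p = 0.161).

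The mediators of the signal did not pass the test. Mdc1, which binds phosphorylated H2AX beside a break, averaged 57.0 ± 6.01 FPKM in cKO and 54.9 ± 4.18 FPKM in WT (log2 fold change 0.05, limma adjusted p = 0.743). Clspn, the adaptor between Atr and its effector kinase Chek1, averaged 23.1 ± 2.18 FPKM in cKO and 24.4 ± 0.675 FPKM in WT (log2 fold change -0.08, 95% interval -0.27 to 0.12). Trp53bp1, which shields broken ends from resection, differed by -0.12 at 34 to 60 reads per library. Its libraries overlapped between the groups in this row and in its other rows. Rad50, the partner of nibrin, averaged 0.525 ± 0.113 FPKM in cKO and 0.555 ± 0.0127 FPKM in WT and was too low to test, as were Timeless, a fork protection gene, and Chek1. Chek1 averaged 0.601 ± 0.0889 FPKM in cKO and 0.952 ± 0.242 FPKM in WT, with 19 to 50 reads per library. Tested with no filter on low values, it gave an unadjusted p of 0.0460 and a limma adjusted p of 0.158.

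In end joining, Xrcc5 fell and the other 3 tested genes did not pass the test. Xrcc5 encodes Ku80, which with Ku70 (the product of Xrcc6) forms the ring that threads onto broken ends and recruits the kinase encoded by Prkdc. Xrcc5 (chromosome 1, 72307421 to 72394952, plus strand, GRCm38) had 37.2, 40.2 and 38.7 FPKM in the cKO libraries, against 58.2, 52.9 and 57.7 FPKM in the WT libraries. The lowest WT library stood well above the highest cKO library. The mean was 38.7 ± 1.48 FPKM in cKO and 56.3 ± 2.93 FPKM in WT (SD, n = 3 each), or 68.8% of WT, with a log2 fold change of -0.53 (SE 0.07, 95% interval -0.68 to -0.38, limma adjusted p = 0.00374). Reads ran between 884 and 1723 per library. In the authors' deposited table, Xrcc5 has a log2 fold change of -0.52 with an FDR of 5.24e-07, and Nbn one of -0.52 with an FDR of 3.93e-06.

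The genes that act with or after Ku did not pass the test. Prkdc, the catalytic subunit of the DNA-dependent kinase, averaged 10.1 ± 0.157 FPKM in cKO and 10.4 ± 0.402 FPKM in WT (log2 fold change -0.05, 95% interval -0.24 to 0.14, limma adjusted p = 0.707). Lig4, the ligase of the route, averaged 3.57 ± 0.123 FPKM in cKO and 3.56 ± 0.253 FPKM in WT (log2 fold change 0.01, 95% interval -0.24 to 0.25). The libraries of both genes overlapped between the groups. Xrcc4, the partner of Lig4, had 11.55, 9.98 and 9.81 FPKM in cKO against 11.6, 11.2 and 10.4 FPKM in WT, with overlapping groups (log2 fold change -0.08, limma adjusted p = 0.605). Xrcc6 had only 8 to 19 reads per library in its row, 0.478 ± 0.135 FPKM in cKO and 0.338 ± 0.155 FPKM in WT. Tested with no filter on low values, Xrcc6 had a log2 fold change of 0.15 (SE 0.11, limma adjusted p = 0.441).

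**Figure D2:**
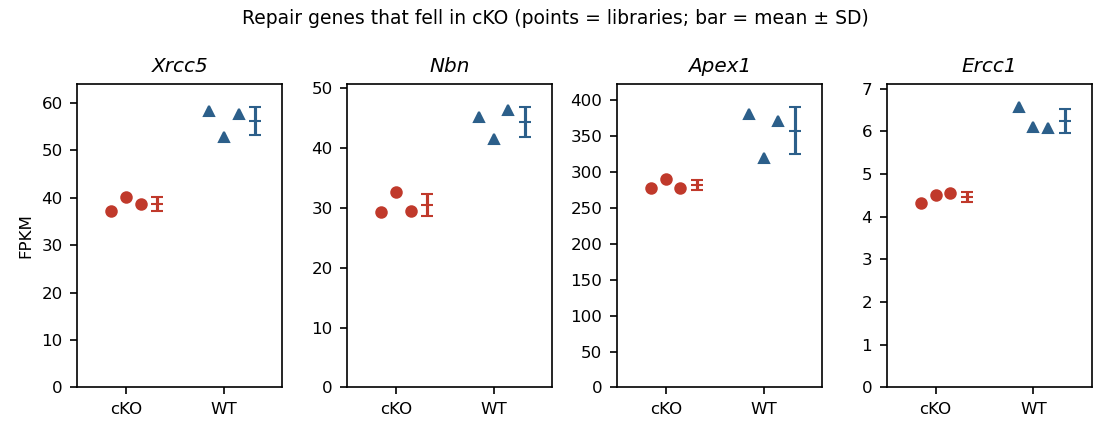
FPKM of Xrcc5, Nbn, Apex1 and Ercc1 in each of the 3 cKO (circles) and 3 WT (triangles) libraries, with the mean and SD as a bar beside the points and each axis starting at 0. Xrcc5 lies between 37.2 and 40.2 FPKM in cKO and between 52.9 and 58.2 FPKM in WT, and no cKO library reaches a WT library in any of the 4 genes.

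None of the 5 tested homologous recombination genes passed the test. Xrcc2, which acts early in strand exchange, had 21.4, 22.5 and 19.1 FPKM in cKO, against 24.4, 24.97 and 28.8 FPKM in WT. The groups did not overlap, and Xrcc2 stood at 80.6% of WT (log2 fold change -0.30, 95% interval -0.52 to -0.08, limma adjusted p = 0.0649). The authors' deposited table gives Xrcc2 an FDR of 0.0365. Bard1, the obligate partner of Brca1 in its ubiquitin ligase, had 17.03, 14.8 and 16.7 FPKM in cKO, against 13.4, 13.3 and 13.7 FPKM in WT. All cKO libraries lay above all WT libraries (120% of WT, log2 fold change 0.24, 95% interval 0.05 to 0.43, limma adjusted p = 0.0834). Bard1 passed the threshold with voom on recovered reads (adjusted p = 0.0336) and without HM-13 (adjusted p = 0.0430).

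Brca1, the tumour suppressor that pairs with Bard1, had log2 fold change 0.06 at 37 to 66 reads per library (limma adjusted p = 0.796). Rad51ap1 and Rad54l, which stimulate strand exchange, had log2 fold changes of 0.03 and 0.04. All these genes overlapped between the groups. Palb2, Blm and Xrcc3 were too low to test. Of the Fanconi anaemia genes, Fanci, the partner of Fancd2 in the clamp that is ubiquitinated at a crosslink, had 9.09, 7.46 and 8.95 FPKM in cKO against 9.30, 9.72 and 9.27 FPKM in WT. All cKO libraries were below all WT libraries, yet by little (log2 fold change -0.14, 95% interval -0.37 to 0.10, limma adjusted p = 0.377). Fancc, a subunit of the core ligase, had 1.01, 1.61 and 1.16 FPKM in cKO against 1.09, 1.92 and 1.26 FPKM in WT, with overlap (limma adjusted p = 0.725). A second row of Fancc, for another transcript, had 0.447, 0.879 and 0.599 FPKM in cKO against 0.982, 1.02 and 0.889 FPKM in WT, without overlap. That second row was low and was not tested. Fancd2 and Fancg were too low to test.

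Base excision repair held both of the highest repair genes. Apex1, the main endonuclease that cuts the backbone where a base is missing, fell. Apex1 (chromosome 14, 50924968 to 50927139, plus strand, GRCm38) had 278, 291 and 278 FPKM in the cKO libraries, against 382, 320.3 and 372 FPKM in the WT libraries. The WT libraries spread more than the cKO libraries, and the lowest of them, HC-8, came nearest to cKO. The mean was 282 ± 7.46 FPKM in cKO and 358 ± 33.0 FPKM in WT (SD, n = 3 each), or 78.8% of WT, with a log2 fold change of -0.34 (SE 0.08, 95% interval -0.52 to -0.16, limma adjusted p = 0.0244). The call held in 2 of the 6 fits that left out a library: it was lost without HM-5, HM-16, HC-1 or HC-10, with adjusted p up to 0.0979. Apex1 starts 75 bases from Osgep, which runs the other way and averaged 4.95 ± 0.145 FPKM in cKO and 4.51 ± 0.934 FPKM in WT (limma adjusted p = 0.576). It also overlaps Pip4p1 on the other strand over 1072 bases, and whether reads were counted by strand is not given in the sources used here.

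Parp1, the sensor of single-strand breaks that builds poly(ADP-ribose), averaged 240.4 ± 17.9 FPKM in cKO and 247 ± 12.3 FPKM in WT at 7267 to 12422 reads per library (log2 fold change -0.04, 95% interval -0.21 to 0.13, limma adjusted p = 0.748). Polb, the gap-filling polymerase of the pathway, averaged 79.4 ± 9.18 FPKM in cKO and 80.3 ± 5.88 FPKM in WT (log2 fold change -0.02, 95% interval -0.24 to 0.20). Both intervals lay within 0.5 of 0 on either side. Ung, the glycosylase that removes uracil from DNA, had 4.44, 3.84 and 4.85 FPKM in cKO, against 5.15, 5.07 and 4.999 FPKM in WT. The groups did not overlap, but the spread among the cKO libraries was wide (log2 fold change -0.18, limma adjusted p = 0.292). Ogg1, the glycosylase for oxidised guanine, rested on 7 to 16 reads per library, and its interval of -0.80 to 0.20 is too wide to place it. Parp2 had log2 fold change -0.19 with overlapping groups, and Xrcc1 and Lig3, the scaffold and the ligase of single-strand break repair, were too low to test.

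In nucleotide excision repair, 1 of 3 tested genes fell. Ercc1 forms with Xpf (the product of Ercc4) the nuclease that cuts on the 5′ side of a bulky lesion. Ercc1 (chromosome 7, 19344778 to 19356524, plus strand, GRCm38) had 4.33, 4.51 and 4.56 FPKM in the cKO libraries, against 6.57, 6.09 and 6.07 FPKM in the WT libraries. The groups lay well apart. The mean was 4.47 ± 0.118 FPKM in cKO and 6.25 ± 0.284 FPKM in WT (SD, n = 3 each), or 71.5% of WT, with a log2 fold change of -0.41 (SE 0.10, 95% interval -0.63 to -0.18, limma adjusted p = 0.0263). Only 42 to 84 reads per library stood behind it, and the authors' deposited table gives Ercc1 an FDR of 0.207. The call held in 8 of 16 alternative settings and in 1 of the 6 fits that left out a library (without HM-13), with adjusted p up to 0.108 among those 6. A second row of Ercc1, for another transcript, had 1.43, 1.498 and 0.688 FPKM in cKO against 1.65, 1.58 and 2.72 FPKM in WT, again without overlap. Ercc1 shares 511 bases with Cd3eap on the other strand, which averaged 39.1 ± 5.38 FPKM in cKO and 31.6 ± 0.277 FPKM in WT (limma adjusted p = 0.0862).

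Xpc, which detects distorted DNA at the start of global repair, was higher in all cKO libraries without passing the test. It had 28.1, 28.96 and 28.5 FPKM in cKO, against 26.2, 22.3 and 23.4 FPKM in WT. The groups did not overlap (119% of WT, log2 fold change 0.25, 95% interval 0.07 to 0.42, limma adjusted p = 0.0638). Xpc passed the threshold with voom on recovered reads (adjusted p = 0.0348) and without HC-1 (adjusted p = 0.0432). Ercc5, the nuclease of the 3′ side, had a log2 fold change of -0.15 (limma adjusted p = 0.287), and Ercc2, a helicase of TFIIH, was too low to test. Of the mismatch repair genes only Msh6, which recognises mispaired bases, was tested. It had 107.4, 99.8 and 109.2 FPKM in cKO, against 113.6, 110.2 and 114.3 FPKM in WT. The groups did not overlap, and the interval of the difference was narrow (log2 fold change -0.10, 95% interval -0.23 to 0.04, limma adjusted p = 0.290). Msh3 and Pms2 were too low to test.

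**Figure D3:**
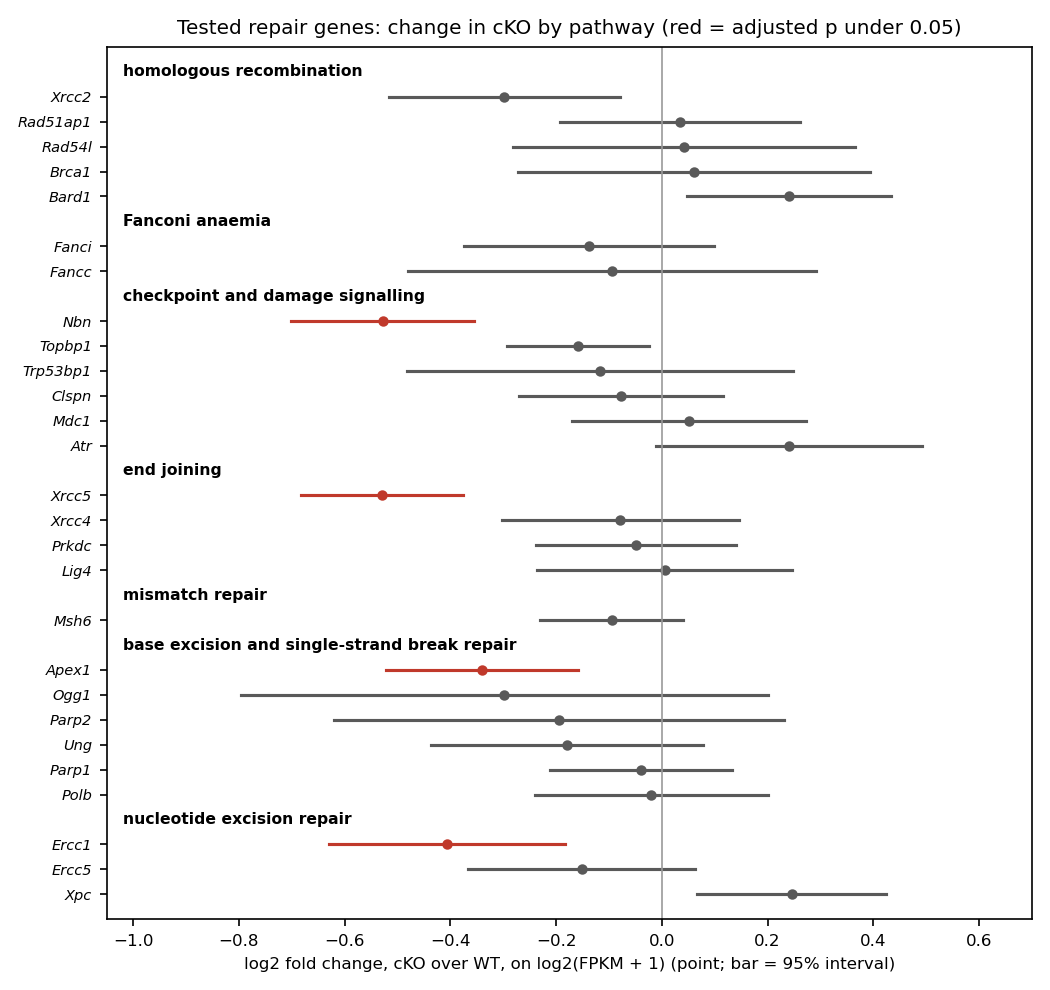
Log2 fold change, cKO over WT, of the 27 tested repair genes by pathway on log2(FPKM + 1), with the 95% interval as a bar (red, adjusted p under 0.05). The points run between -0.53 for Xrcc5 and 0.25 for Xpc, and the 4 red intervals all lie below 0.

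The 27 tested genes together showed mostly small differences. The median log2 fold change was -0.09, against -0.01 over all 9359 tested genes, with 19 genes below 0 and 8 above. In 12 genes the log2 fold change was under 0.1 in size. Of the 23 genes that did not pass the test, 20 had a 95% interval within -0.5 to 0.5 on log2(FPKM + 1). A change larger than that on this scale lay outside the interval for them. For low genes such as Fancc (means of 1.26 FPKM in cKO and 1.43 FPKM in WT) this scale understates the change. Larger fold changes of FPKM itself are not excluded there. All cKO libraries were below all WT libraries in 10 of the 27 genes (37.0%), against 19.6% of all tested genes, and above them in 3 (11.1%), against 19.5%. In the authors' deposited table, of the 28 repair genes with an FDR, 4 were under 0.05 (14.3%), namely Apex1, Xrcc5, Nbn and Xrcc2, against 20.9% of all genes with one. The summed FPKM of the 41 genes was 1086 to 1118 in the cKO libraries, against 1195 to 1276 in the WT libraries. This sum is weighted to the highest genes and does not describe the set as a whole. Apex1, the highest and already called as fallen, averaged 282 FPKM in cKO and 358 FPKM in WT.

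Xrcc5 and Nbn passed the threshold in all 16 alternative settings, with adjusted p up to 0.0431 and 0.0436 when libraries were rescaled to equal FPKM totals. With that rescaling Apex1 and Ercc1 lost their calls (adjusted p = 0.138 and 0.206). Apex1 also lost its call with no intensity trend (adjusted p = 0.0507) and held it in 10 of the 16 settings. Leaving out HM-13, with its high Rn45s share, kept all 4 falls and added Bard1. Atr, Topbp1 and Xrcc2 passed in none of the 16.

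**Figure D4:**
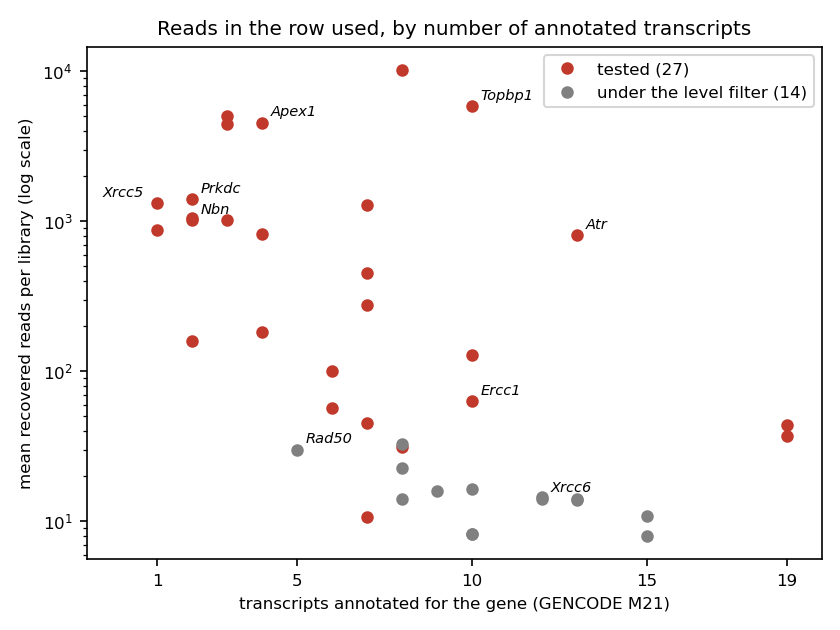
Mean recovered reads per library (log axis) of the row used for each of the 41 repair genes against the number of GENCODE M21 transcripts of the gene (red, tested, grey, under the level filter). All 12 of these genes with at most 4 transcripts were tested, and the 14 untested genes with a row have 5 to 15 transcripts.

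Among the repair genes with a row, which could be tested went with the number of annotated transcripts. Rows carry transcript identifiers, and how reads shared by several transcripts were counted is not given in the sources used here. All 12 repair genes with a row and at most 4 GENCODE M21 transcripts were tested, against 15 of 29 with 5 or more. Of the listed genes without a row, Ercc3 and Rad51c have 3 and 4 transcripts, and the rest have 6 to 14. The median number of transcripts was 6 for tested genes and 10 for untested genes. The mean normalized count had a median of 1035 in repair genes with 2 to 4 transcripts and 30.4 in those with 5 or more, where all genes in the table had medians of 218 and 105. With 1 transcript the median was 1083 in 2 repair genes and 104 in all genes, so levels over all genes did not fall steadily with transcript number. Untested genes never had more than 50 reads in a library. Rad50, Xrcc6, Chek1 and Fancd2 are among them, and a low value of such a row is a value of that row, not shown to be the level of the gene. The part of transcript number in these levels was not tested.

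Other genes of the same routes, listed by pathway, were read off the same test. Of 159 listed, 106 had a row and 84 were tested. Of these, 13 fell (15.5%, against 8.39% of all tested genes) and 0 rose (against 9.62%). At an unadjusted p under 0.05 (limma) there were 34 (40.5%, against 34.3% of all tested genes). The median log2 fold change of the 84 genes was -0.16, against -0.01 over all tested genes, with 65 genes below 0 and 19 above. When HM-5, HM-16 or HC-10 was left out, 5 fell in place of 13, and after rescaling to equal FPKM totals 2 fell. The share of all tested genes that changed in either direction, 18.0%, was lower in these settings too. It was 5.59%, 5.96% and 9.64% without those libraries in that order, and 5.59% after rescaling. With other settings of the test at most 2 rose (Polm and Wee1, without HM-13).

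Among the 24 further homologous recombination genes tested, 4 fell (16.7%, against 8.39% of all tested genes). Eme1, a subunit of a nuclease that resolves joined chromatids, was at 73.6% of WT (limma adjusted p = 0.00458), Sfr1, a cofactor of strand exchange, at 76.4% (adjusted p = 0.0149), and Dna2, a nuclease that resects ends, at 63.7% (adjusted p = 0.0183). The other one, Rfwd3, a ubiquitin ligase that acts on RPA, was at 85.9% (adjusted p = 0.0397) and is named because it completes the count. Eme1 kept its call whichever library was left out, Sfr1 lost it without HM-5, HM-16 or HC-10, Dna2 without HM-5 or HC-10, and Rfwd3 whichever library was left out (adjusted p up to 0.142). Of 10 further Fanconi anaemia genes, 2 fell (20%, against 8.39% of all tested genes). Apitd1 was at 63.5% of WT and Faap20 at 77.7% (limma adjusted p = 0.0079 and 0.0117). Apitd1 encodes a histone-fold partner of the Fancm translocase, and Faap20 a subunit of the core complex. Faap20 lost its call without HM-5 or HM-16 (adjusted p up to 0.0617), and Apitd1 kept it in all 6 such fits.

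Of 16 further genes listed under checkpoint and damage signalling, 3 fell (18.8%, against 8.39% of all tested genes). Rnf168, which ubiquitinates histones beside a break, was at 81.3% of WT, Dclre1a, a crosslink nuclease, at 66.2%, and Smc1a, a cohesin subunit, at 80.6% (limma adjusted p = 0.0176, 0.0188 and 0.0292). Each lost its call without HM-5, HM-16 or HC-10, and Smc1a also without HC-1 (adjusted p up to 0.118). Of 12 further nucleotide excision genes, 3 fell (25%, against 8.39% of all tested genes). Gtf2h3, a TFIIH subunit, fell to 74.2% of WT, and Ercc6, which acts where RNA polymerase stalls, to 74.4%. Ddb1, an adaptor of the damage-sensing ligase, fell to 87.6% (limma adjusted p = 0.00826, 0.0183 and 0.0471 in that order). Gtf2h3 kept its call whichever library was left out, Ercc6 lost it without HM-5, HM-16 or HC-10, and Ddb1 whichever library was left out (adjusted p up to 0.168). Ercc4, the partner of Ercc1, was too low to test, at 0.274 ± 0.0567 FPKM in cKO and 0.173 ± 0.0373 FPKM in WT. Of 8 further base excision genes only Pcna, the sliding clamp of replication, fell (12.5%, against 8.39% of all tested genes). Pcna was at 68.3% of WT (limma adjusted p = 0.00616) and kept its call whichever library was left out. It is also in the S phase list described next. None of 6 further end joining, 2 further mismatch repair and 6 translesion genes passed the test.

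**Figure D5:**
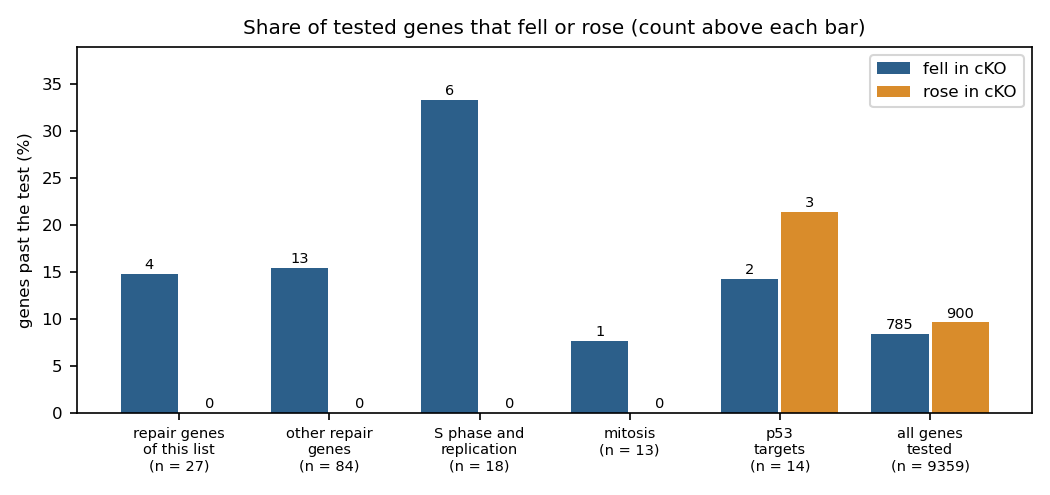
Share of tested genes that fell (blue) or rose (orange) in cKO for the repair genes, the other repair genes, 3 context lists and all genes tested, with the number of genes above each bar. The repair genes have 4 fallen and 0 risen of 27, beside 785 fallen and 900 risen of 9359.

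Genes of the cell cycle and of the p53 response were set beside the repair genes, since many repair genes are made in S phase. Of 18 S phase genes tested, 6 fell (33.3%, against 8.39% of all tested genes) and 0 rose, with a median log2 fold change of -0.12. Rrm1, a subunit of ribonucleotide reductase, fell to 72.6% of WT, Pcna to 68.3% and Mcm7, of the replicative helicase, to 76.6%. Mcm2, Mcm3 and Gins1 complete the count and passed narrowly (limma adjusted p = 0.0496, 0.0407 and 0.0492). Mcm2 and Mcm3 lost their calls whichever library was left out, and Gins1 held its call in 1 of those 6 fits. Of 13 mitosis genes only Kif11, the spindle motor, fell (87.6% of WT, limma adjusted p = 0.0482), with a median of -0.17. That is 7.69% of them, against 8.39% of all tested genes. At an unadjusted p under 0.05 (limma) there were 7 (53.8%, against 34.3% of all tested genes). All cKO libraries were below all WT libraries in 9 of the 13 (69.2%, against 19.6%). Rrm1 and Pcna kept their calls whichever library was left out, Mcm7 lost its call without HM-5, HM-16 or HC-10 (adjusted p up to 0.072), and Kif11 lost it whichever library was left out (adjusted p up to 0.169). The part of these genes in the repair values was not tested.

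Of 20 p53 target genes listed, 15 had a row, and Cdkn1a and Mdm2 were among those without one. Of the 14 tested, 3 rose (21.4%, against 9.62% of all tested genes) and 2 fell (14.3%, against 8.39%). The median log2 fold change was 0.12. Sesn2, a stress sensor that restrains mTORC1, had 8.33, 5.77 and 9.57 FPKM in cKO against 3.01, 3.07 and 2.83 FPKM in WT (limma adjusted p = 0.00611). Bbc3, which encodes the death inducer Puma, averaged 12.5 ± 0.792 FPKM in cKO and 8.17 ± 0.620 FPKM in WT (adjusted p = 0.00964), and Tnfrsf10b, a death receptor, averaged 5.52 ± 1.35 FPKM in cKO and 2.61 ± 0.557 FPKM in WT (adjusted p = 0.0212). These genes answer to other stresses besides DNA damage. The fallen members were Btg2, at 64.0% of WT, and Ccnd2, at 63.5%, both of which also mark progenitor states in the cortex. Sesn2 kept its call whichever library was left out, Bbc3 and Btg2 lost theirs without HM-5 (adjusted p = 0.0546 and 0.0527), Ccnd2 without HM-5 or HM-16 and Tnfrsf10b without HM-5, HM-16 or HC-10 (adjusted p up to 0.0772).

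Cell type markers moved in part with the groups. Among the 9 cortical progenitor markers tested, Emx2 rose and Fabp7 fell. Of 6 intermediate progenitor markers 1 fell (Btg2, 16.7%, against 8.39% of all tested genes). Fabp7 kept its call whichever library was left out, and Emx2 kept it in 1 of the 6 such fits, that without HM-13. None of 9 neuron markers passed the test, and 4 had an unadjusted p under 0.05 (limma, 44.4%, against 34.3% of all tested genes). But the median log2 fold change of the neuron markers was -0.36, and all 9 were below 0. Their summed FPKM was 872 to 1290 in cKO against 1210 to 1577 in WT. Of 5 microglia markers 2 rose (40%, against 9.62% of all tested genes), namely C1qb and Tyrobp. C1qb lost its call without HM-5, HM-16 or HC-10, and Tyrobp without HM-16. The microglia markers had sums of 56.5 to 62.6 FPKM in cKO and 39.1 to 47.3 FPKM in WT. None of the tested markers of ventral telencephalon (3), endothelium and pericytes (4), erythroid cells (5) and meninges (7) passed the test, and no marker with a row was at 0 in all libraries. The part of cell makeup in the repair gene values was not tested.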

How the data were processed

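The 3 cKO and 3 WT RNA-seq libraries of cortex were made with a TruSeq kit, per the labels. Per the submitters' processing notes, base calls went through bcl2fastq 1.8.4 and the genome build was mm10. The authors also named STAR 2.5.4b, DESeq2 1.22.1 (under R 3.4.1) and featureCounts 1.6.1 in those notes. Which annotation served for counting is not given in the sources used here. Per library, the authors deposited FPKM, and per row a mean normalized count (a signal divided by size factors), and their own log2 fold changes and p-values with FDR. The cKO and WT columns were read from the letters M (mutant) and C (control) in their names, which carry no replicate number of the labels.

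The row of highest mean normalized count was kept per symbol. Genes that reached 1 FPKM in 3 or more libraries were tested with limma 3.58.1 (R 4.3.3, intensity trend, group only) on log2(FPKM + 1), after a test on simulated data. Reads were recovered from FPKM and the mean normalized count, with 100% of values whole within 0.001 of a read. Depth sets the precision: recovered reads per gene are given beside low values. FPKM rather than counts was deposited, so voom on recovered reads served as an alternative. Others changed the pseudocount, filter, scaling, trend and row choice, or left out each library.

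Members and lists were chosen with earlier results of these data known. Values per library are given for each of the 49 listed genes past the threshold. In each pathway of that list they are given for the 2 genes with the smallest unadjusted p. They are also given for Atr, chosen after its values were seen, and for Sesn2 and second rows of Ercc1 and Fancc. Lists of other genes name up to 3 that passed, and more where they complete a count. Promoters were to be printed for changed genes with an E2F spelling, and none had one. Positions are from GENCODE M21 (GRCm38). The result of 1 cell type marker is not reported here.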

Additional observations from a re-analysis of the deposited data

How the results depend on the processing

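The log2 fold changes of the genes refitted under each alternative (every gene that passed the test among the repair lists and named context genes, and Xrcc2, Xpc, Bard1, Topbp1 and Atr) kept their sign, and other genes were not refitted one by one. The median over all genes, -0.00854, was 0.0019 with no filter, 0.00672 with equal FPKM totals and 0.0514 with totals made equal without Rn45s. The number of repair genes that changed (4) was 2 after rescaling to equal FPKM totals and 2 to 5 when 1 library was left out. The number that fell was 2 after that rescaling and 2 to 4 without 1 library, and the number that rose (0) was 2 with voom on recovered reads (Bard1 and Xpc) and 0 to 1 without 1 library. Rescaling gives weight to Rn45s in HM-13, and 523 genes of all were then called, against 1685. The median log2 fold change of the repair genes was -0.0582 with a pseudocount of 5, -0.0521 with no filter, -0.0238 with totals made equal without Rn45s (chosen after seeing the data), -0.12 after quantile normalization, and -0.0895 to -0.0568 without 1 library. The other repair genes that fell (13) numbered 2 with equal totals, 8 with totals without Rn45s, and 5 to 12 without 1 library. Those that rose (0) numbered 1 with no filter (Dmc1), 1 at a mean of at least 5 FPKM (Stra13), 1 with no intensity trend (Telo2), and 0 to 2 without 1 library. The cause of these shifts was not tested. No paired analysis was possible because the columns carry none of the labels' replicate numbers. Each group had 3 libraries, and some tested genes had under 100 reads in every library. Among them were Ogg1, Parp2 and Brca1, which did not pass the test, and Ercc1, which did. The part of depth in these results was not tested.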
